A study of Mus musculus with 88 samples.

Results

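The inflammasome and interleukin-1 (IL-1) genes Il1b, Il1rn, Nlrp3, Casp1, Casp4 and Pycard were followed in whole blood of SNF1 mice, the F1 hybrid of SWR and NZB and a mouse strain prone to lupus nephritis. The 6 genes were taken by symbol from the probe annotation of the array, each through its brightest single-gene probe set over all 88 arrays, and they are 6 of 17097 genes measured by such a probe set. Blood RNA was hybridised on 88 Affymetrix arrays in 11 groups of 8 arrays: pristane-treated SNF1 mice sampled 2, 4, 8, 12 and 14 weeks after injection, SNF1 mice with spontaneous disease at week 36, and untreated SNF1 mice matched to the 5 pristane time points. All groups share the strain and the tissue, and no group carries a transgene or a deletion. Pristane is a hydrocarbon found in mineral oil that was injected into the peritoneal cavity before spontaneous disease was visible. Week 36 is an age, whereas weeks 2 to 14 count from the injection, and no healthy group of the age of the spontaneous group was analysed here. Age and disease therefore cannot be told apart in that group, whose mice had protein in the urine. The study describes at least 8 animals for each condition, and the labels do not say whether 1 animal was bled at several time points.

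An inflammasome is a cytosolic complex that turns a danger signal into proteolysis. A sensor such as NLRP3 recruits the adaptor ASC, the product of Pycard, which in turn gathers and activates caspase-1, the product of Casp1. Caspase-1 cleaves the precursor of IL-1β, encoded by Il1b, and opens gasdermin D pores. Mouse Casp4, also called caspase-11, binds bacterial lipopolysaccharide in the cytosol and starts the non-canonical arm. Il1rn encodes the IL-1 receptor antagonist, which occupies the IL-1 receptor without signalling. In blood these genes are mainly used by neutrophils and monocytes, and several of them are inducible by interferons or by microbial products. RNA levels say nothing of cleavage or secretion, which were not measured.

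Markers of the tissue were bright, with means of 13.46 for the haemoglobin gene Hba-a1, 12.52 for the granulocyte gene S100a9 and 11.96 for the platelet gene Pf4. Values are log2 signals after robust multi-array averaging (RMA), so a difference of 1 is a 2-fold difference. Probe sets bind with unequal strength, hence levels are compared between groups within a gene and not between genes. A member was called higher or lower at an adjusted p under 0.05 in limma, with Benjamini-Hochberg adjustment over all 45037 probe sets tested and no fold threshold. The medians of the arrays lay between 3.78 and 4.01, and their interquartile ranges between 2.75 and 3.79. The interquartile range was widest on average in untreated mice of week 14 (3.53) and in spontaneous disease (3.45), against 3.13 to 3.30 in the other groups. Pristane week 4 replicate 1 stood apart from the other pristane-treated mice, with an interferon response score of 6.52 against 7.95 or more in every pristane-treated mouse of the other weeks and a neutrophil marker score of 7.66 against 8.29 or more in those mice. Without it, no member lost its call at week 4 and Casp1 was called in addition.

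Casp1 and Casp4 are neighbours on chromosome 9, read in the same direction, with 1567 bases between the end of Casp1 (5298517 to 5307281) and the start of Casp4 (5308849 to 5336791) in GRCm38.p6. Il1b (129364569 to 129371164) and Il1rn (24336860 to 24351491) lie far apart on chromosome 2, Pycard (127991373 to 127993867) on chromosome 7 and Nlrp3 (59541569 to 59566955) on chromosome 11. The 250 bases upstream of the annotated start, from RefSeq on GRCm38.p6, are shown for the caspase neighbours, which were called with pristane at 5 (Casp4) and 0 (Casp1) of the 5 weeks, and for Il1b, written 5′ to 3′ on the strand of the gene. Capitals mark a match to one of 6 motifs searched on both strands.
Casp4: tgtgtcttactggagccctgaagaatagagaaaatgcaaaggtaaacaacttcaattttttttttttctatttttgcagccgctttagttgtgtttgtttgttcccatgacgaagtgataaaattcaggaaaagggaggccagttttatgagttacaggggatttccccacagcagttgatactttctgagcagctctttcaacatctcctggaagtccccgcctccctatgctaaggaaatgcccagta
Casp1: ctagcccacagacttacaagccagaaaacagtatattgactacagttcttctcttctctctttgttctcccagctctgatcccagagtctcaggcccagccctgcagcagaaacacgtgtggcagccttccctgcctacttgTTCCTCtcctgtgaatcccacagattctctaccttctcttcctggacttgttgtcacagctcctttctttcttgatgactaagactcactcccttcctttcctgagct
Il1b: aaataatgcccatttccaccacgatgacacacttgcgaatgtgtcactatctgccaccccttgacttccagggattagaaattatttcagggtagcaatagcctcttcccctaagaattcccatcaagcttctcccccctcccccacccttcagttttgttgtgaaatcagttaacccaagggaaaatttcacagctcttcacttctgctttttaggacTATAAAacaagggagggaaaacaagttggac
The windows are chr9:5308599-5308848 (plus strand) for Casp4, chr9:5298267-5298516 (plus strand) for Casp1 and chr2:129371140-129371389 (minus strand) for Il1b, where the listed extent of the gene reaches into the window. The motifs were the interferon-stimulated response element core (GAAA, NN, GAAA), held by 2.98% of 32851 windows of this length, the STAT element TTCNNNGAA (7.02%), the ETS core GAGGAA (23.3%), the C/EBP element TTGCNNAA (9.56%), the kappa B element (GGGA, NN, TTCC; 1.21%) and the TATA box TATAAA (12.4%), N standing for any base. A match is a description and no site. The Il1b window held the TATA box with its first base at position -31 from the start, and the Casp1 window held 1 ETS core on the opposite strand. The Casp4 window held none of the 6 motifs in these letters, and neither did a second Casp4 start 11 bases downstream. Looser spellings were not searched, such as the ggggatttcc of the Casp4 window, which has GGGG where the kappa B letters have GGGA. Of the other members, 1 of 2 annotated Nlrp3 starts had 3 ETS cores, Pycard had 1 ETS core and 1 C/EBP element, and the 3 Il1rn windows held no match.

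Most of these genes were higher in blood of pristane-treated mice. On the average over the 5 weeks, 5 of the 6 members were higher in pristane-treated than in untreated blood (Casp4, Il1rn, Il1b, Nlrp3 and Casp1) and none was lower, where 12.8% of all genes were called higher. The members were chosen with earlier results of these data known, so this count is no test of the set. The average rise was 2.68-fold for Casp4 (95% interval 2.25 to 3.21), 1.94-fold for Il1rn (1.61 to 2.33), 1.77-fold for Il1b (1.55 to 2.02), 1.53-fold for Nlrp3 (1.32 to 1.77) and 1.31-fold for Casp1 (1.11 to 1.54). Pycard, the adaptor, averaged 1.12-fold (0.975 to 1.29, adjusted p = 0.249 in limma). The median difference of the 6 members was 0.72 on the log2 scale, against 0.02 over all genes. The members called and the size of their differences were not the same at every week, as the plot of all arrays by group shows.

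**Figure D1:**
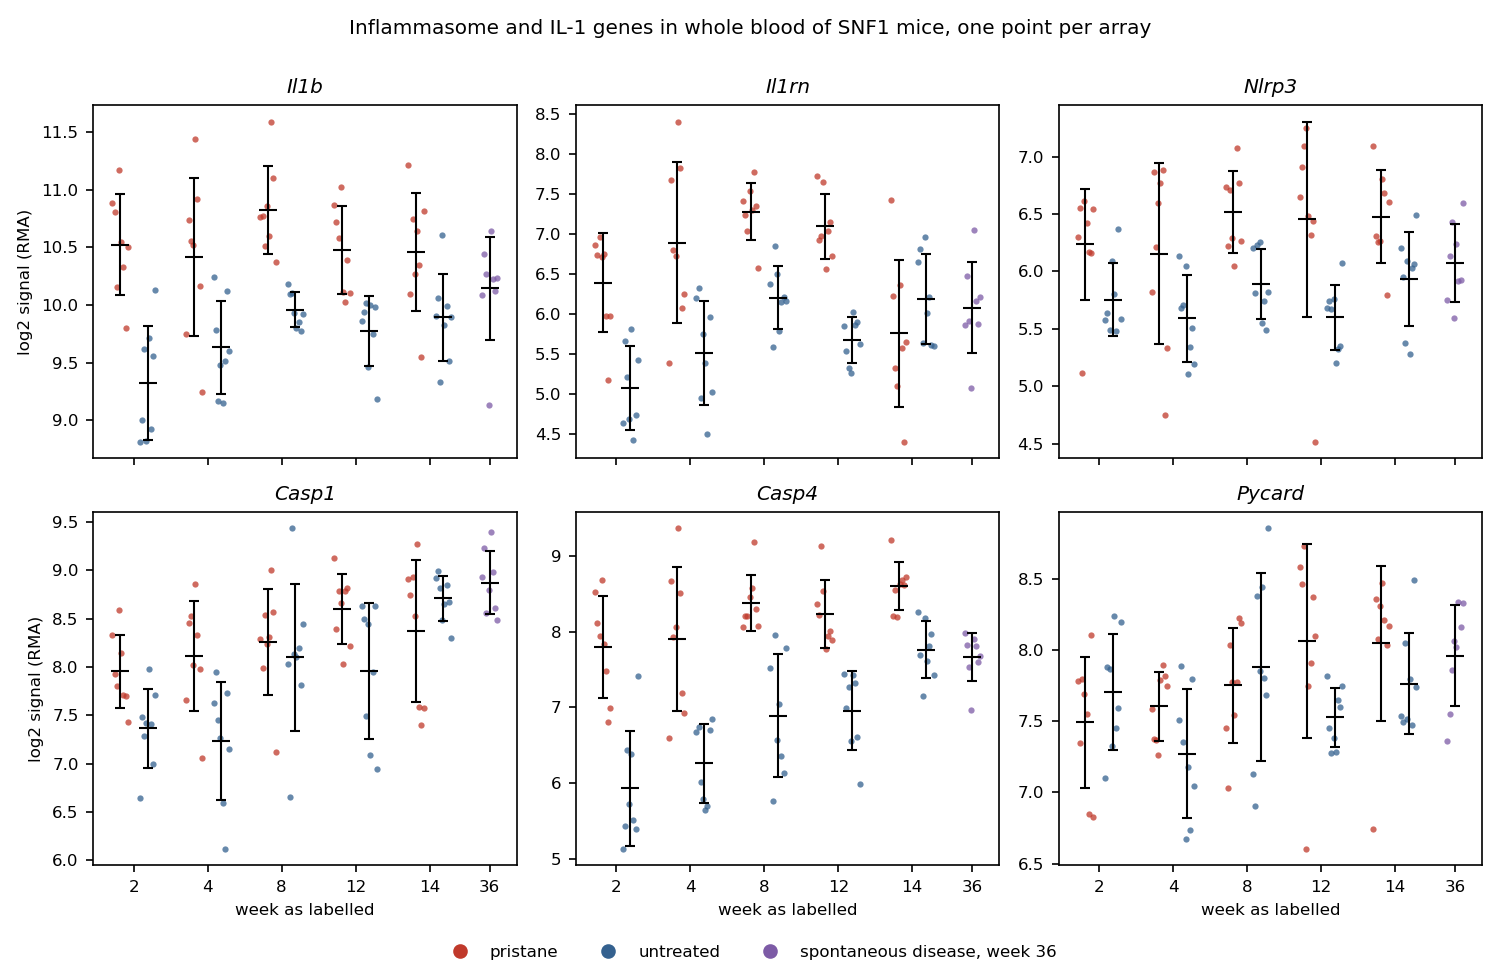
Log2 RMA signal of the 6 genes in every array, by labelled week, with pristane-treated mice (red) left of untreated mice (blue) and spontaneous disease at week 36 (purple); each point is 1 array, and black marks give the mean and SD of 8 arrays. Casp4 of all 8 pristane-treated mice lay above all 8 untreated mice at weeks 8 and 12, as for 0.667% and 0.801% of all genes. Il1rn of pristane-treated mice had a mean of 5.76 at week 14 against 7.09 at week 12.

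At week 2, Il1b, Il1rn and Casp4 were higher with pristane, all over 2-fold, where 2.29% of all genes were called higher and 1.15% higher and over 2-fold. The same 3 genes were called at week 4 (2.18% of all genes called higher) and at week 8 (1.85%). At week 12 the called members were Il1rn, Nlrp3 and Casp4 (2.7% of all genes), with Il1b just over the threshold (adjusted p = 0.05004 in limma). At week 14 only Il1b and Casp4 were called, neither over 2-fold, and the Il1b call was lost after quantile normalization (adjusted p = 0.0952, limma), with arrays centred on their median (0.0759) and with only the 16 arrays compared (0.0695). At that week 12.7% of all genes were called higher, 1.87% higher and over 2-fold. No member was called lower at any week, where 1.29%, 0.801%, 0.778%, 1.06% and 9.72% of all genes were at weeks 2, 4, 8, 12 and 14, nor on the average (13.7%).

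Il1b, the gene of the secreted cytokine, had group means between 10.42 and 10.82 on the log2 scale with pristane, against 9.32 and 9.96 in untreated mice. At week 2 its lowest, median and highest log2 signals were 9.80, 10.53 and 11.17 with pristane, against 8.81, 9.28 and 10.13 in untreated mice, and 7 of 8 treated mice exceeded every untreated mouse. At week 8 they were 10.37, 10.77 and 11.59 with pristane, against 9.78, 9.93 and 10.19 without, and at week 12 they were 10.03, 10.48 and 11.03 with pristane, against 9.19, 9.90 and 10.02 without. The groups did not overlap at weeks 8 and 12, which was so for 0.667% and 0.801% of all genes in this direction. At weeks 4 and 14 the groups overlapped: 5 of 8 treated mice lay above all untreated mice at week 4 (median 10.54 with pristane, against 9.56 without) and 4 of 8 at week 14 (10.50 with pristane, against 9.90 without). The log2 differences were 1.20, 0.78, 0.86, 0.70 and 0.57 at weeks 2, 4, 8, 12 and 14 (SE 0.21 each), with limma adjusted p of 7.64e-05, 0.0249, 0.0105, 0.05004 and 0.0457. The pristane effect on Il1b did not pass the test for a difference among weeks (adjusted p = 0.638, limma F test). The call was lost on leaving out any one of 5 arrays at week 4 and any one of 11 of the 16 arrays compared at week 14, and at week 12 it was gained without any one of 4 arrays.

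Il1rn, the antagonist gene, was higher with pristane at weeks 2, 4, 8 and 12 and was not called at week 14. With pristane its lowest, median and highest log2 signals were 5.17, 6.72 and 6.97 at week 2, against 4.42, 4.97 and 5.81 in untreated mice. At week 4 they were 5.39, 6.76 and 8.41 with pristane, against 4.50, 5.57 and 6.33 without. At week 8 they were 6.58, 7.33 and 7.77 with pristane, against 5.58, 6.19 and 6.85 without. The highest treated mouse of week 4 was the highest of all 88 arrays, and 1 to 3 treated mice overlapped the untreated range in each of these 3 comparisons. At week 12 the signals were 6.56, 7.01 and 7.72 with pristane, against 5.26, 5.73 and 6.03 without, with no overlap, as for 0.801% of all genes in this direction. At week 14 they were 4.40, 5.61 and 7.43 with pristane, against 5.59, 6.11 and 6.96 in untreated mice. There, 4 of 8 treated mice lay below every untreated mouse and 1 lay above, so that this group was the most spread of the 11 but for pristane week 4 (SD 0.92 and 1.01). The log2 differences were 1.32, 1.38, 1.08 and 1.42 at weeks 2 to 12 (SE 0.30 each; limma adjusted p = 0.00352, 0.00195, 0.0301 and 0.00148) and -0.43 at week 14 (adjusted p = 0.299). The sign of the week 14 difference turned with the interquartile range of the array as a covariate (0.0083) and with untreated mice of week 12 as control (0.083), and the interquartile range averaged 3.26 with pristane at week 14, against 3.53 in untreated mice. The call at week 8 was lost on leaving out any one of 5 arrays.

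The difference of Il1rn between weeks was itself tested. The pristane effect at week 14 was 1.75 lower on the log2 scale than at week 2 (limma adjusted p = 0.00604; 2.67% of all genes had a lower and 4.19% a higher effect at week 14) and 1.85 lower than at week 12 (adjusted p = 0.00787; 1.28% of all genes lower, 0.877% higher). Il1rn was also the only member whose pristane effect differed among the 5 weeks (adjusted p = 0.00844, limma F test; 3.16% of all genes). These 3 calls held on leaving out each array in turn, under each other scaling of the arrays, and with the interquartile range of the array as a covariate. Il1rn has a pair of further, dimmer probe sets. The brighter one of these gave effects 1.53 (adjusted p = 0.0285) and 1.80 lower (adjusted p = 0.0173) at week 14 than at weeks 2 and 12, with an adjusted p of 0.0525 in the F test. The dimmest one, with a mean of 2.82, gave -0.13 (adjusted p = 0.749) and -0.29 (adjusted p = 0.534). Among pristane-treated mice alone, a comparison added after the values were seen, Il1rn was 1.34 lower on the log2 scale at week 14 than at week 12 (2.53-fold, limma adjusted p = 0.00367; 1.32% of all genes were called lower and 2.2% higher), while Il1b differed by -0.02 (adjusted p = 0.985). Against pristane week 2 the week 14 difference of Il1rn was -0.64 and did not pass the test (adjusted p = 0.182), whereas in untreated mice Il1rn was 1.12 higher at week 14 than at week 2, so that the lower effect of week 14 against week 2 holds a change in the untreated groups too.

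Nlrp3, the sensor that primes with inflammatory signals, lay 0.48 to 0.86 higher on the log2 scale with pristane at each week, and only the difference of week 12 passed the test. At week 12 its lowest, median and highest signals were 4.51, 6.56 and 7.25 with pristane, against 5.20, 5.68 and 6.07 in untreated mice (difference 0.86 ± 0.24 SE, limma adjusted p = 0.0253). In that group 7 of 8 treated mice exceeded every untreated mouse, and pristane week 12 replicate 8 had the lowest signal of all 88 arrays. The log2 differences at weeks 2, 4, 8 and 14 were 0.48, 0.56, 0.63 and 0.54, with limma adjusted p of 0.291, 0.259, 0.183 and 0.0898. The call at week 12 was lost on leaving out any one of 6 arrays, whereas the average over the weeks kept its call in each fit without 1 array.

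Pycard, the ASC adaptor gene, was not called in any comparison. Its signals ranged between 6.60 and 8.73 over the 40 pristane-treated mice, against 6.67 and 8.85 over the 40 untreated mice. The pristane differences ran from -0.21 at week 2 to 0.54 at week 12 on the log2 scale, where the 95% interval at week 12 was 0.09 to 0.99 and the adjusted p 0.224. Without pristane week 12 replicate 4, the lowest Pycard array of all 88, the week 12 difference was 0.75 and passed the test (adjusted p = 0.0438). Its 2 dimmer probe sets averaged -0.04 (adjusted p = 0.822) and -0.03 (adjusted p = 0.855) over the weeks. The interval of the average, -0.04 to 0.36, included 0.

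Casp4, the lipopolysaccharide-sensing caspase, had the largest pristane difference of the 6 members at weeks 2, 4, 8 and 14 and the second largest, after Il1rn, at week 12. At week 2 its lowest, median and highest signals were 6.81, 7.89 and 8.68 with pristane, against 5.13, 5.62 and 7.41 in untreated mice. At week 4 they were 6.59, 7.99 and 9.36 with pristane, against 5.64, 6.34 and 6.84 without. At week 8 they were 8.06, 8.25 and 9.19 with pristane, against 5.76, 6.81 and 7.95 without. In the untreated groups the median was higher at each later week. At week 12 the signals were 7.76, 8.12 and 9.13 with pristane, against 5.99, 7.13 and 7.44 without, and at week 14 they were 8.19, 8.62 and 9.21 with pristane, against 7.15, 7.75 and 8.26 without. The groups did not overlap at weeks 8 and 12, as for 0.667% and 0.801% of all genes in this direction. At weeks 2, 4 and 14, 6, 7 and 6 of 8 treated mice lay above all untreated mice. The rise was 3.66-fold (95% interval 2.46 to 5.44) at week 2, 3.12-fold (2.10 to 4.64) at week 4, 2.81-fold (1.89 to 4.18) at week 8, 2.43-fold (1.64 to 3.61) at week 12 and 1.79-fold (1.20 to 2.66) at week 14. The limma adjusted p were 3.5e-06, 6.21e-05, 0.000367, 0.00334 and 0.0275. By size of the rise Casp4 stood at place 53 of 17097 genes at week 2 and at place 536 at week 14. The smaller difference at week 14 did not pass the test against week 2 (-1.03 on the log2 scale, 95% interval -1.84 to -0.23, adjusted p = 0.106) nor the test among weeks (adjusted p = 0.446). The test against week 2 was passed without untreated week 2 replicate 8 (-1.25, adjusted p = 0.0396) and with array weights. The week 14 call of Casp4, and with it that of Il1b, was lost without pristane week 14 replicate 1 and without untreated week 14 replicate 3, so that 0 members were called there.

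Casp1, the protease that matures IL-1β, was called on the average over the weeks and at no single week. The log2 differences were 0.59, 0.88, 0.16, 0.64 and -0.34 at weeks 2, 4, 8, 12 and 14 (SE 0.26 each), and none passed the test (limma adjusted p = 0.228, 0.0538, 0.903, 0.214 and 0.356). At week 4 its lowest, median and highest signals were 7.06, 8.18 and 8.86 with pristane, against 6.12, 7.36 and 7.95 in untreated mice, and 6 of 8 treated mice lay above all untreated mice. Leaving out pristane week 4 replicate 1, the mouse with the low interferon score, brought Casp1 past the threshold at that week, as did leaving out any one of 4 other arrays. At week 14 the signals were 7.40, 8.64 and 9.27 with pristane, against 8.30, 8.74 and 8.99 in untreated mice, a narrow untreated group within the range of the treated one. The average rise of 0.39 on the log2 scale (adjusted p = 0.00994) kept its call in each fit without 1 array.

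**Figure D2:**
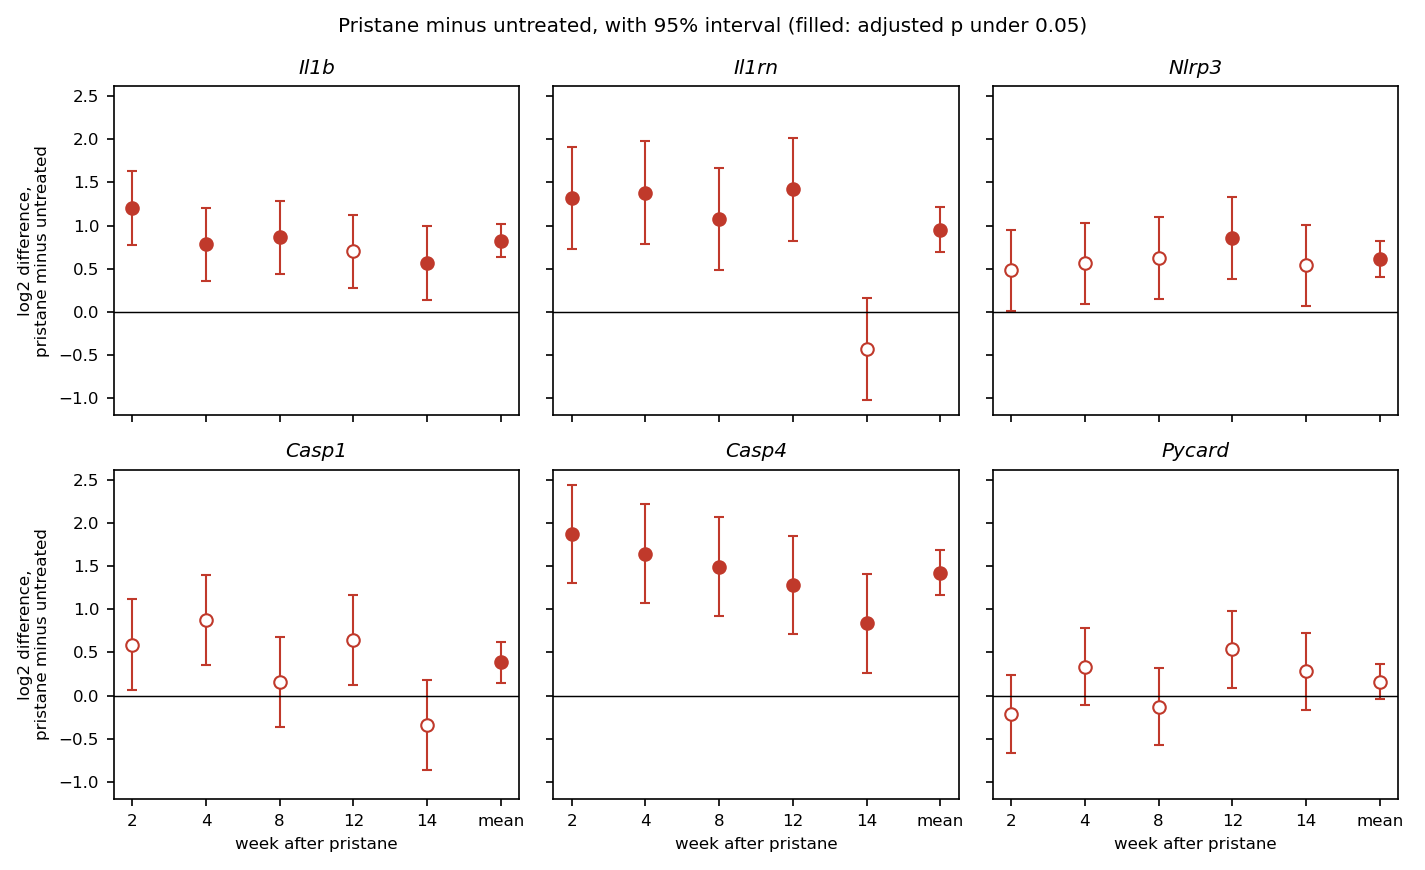
Difference of mean log2 signal, pristane minus untreated, at each week after injection and averaged over the 5 weeks (mean), for each gene; bars are 95% intervals from limma, filled points have an adjusted p under 0.05. Casp4 was filled at all 5 weeks with differences from 1.87 at week 2 to 0.84 at week 14, while Il1rn stood between 1.08 and 1.42 up to week 12 and at -0.43 at week 14.

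Markers of neutrophils and of the interferon response moved with pristane too. The monocyte list had a median average difference of 0.0045 on the log2 scale, against 0.02 over all genes. Of all genes, 12.8% were called higher and 13.7% lower on average, and 1.85% to 12.7% were called higher at the single weeks. The neutrophil marker list had all 11 of its measured genes higher on average, among them S100a9 (1.51-fold), S100a8 (2.02-fold) and the gelatinase gene Mmp9 (2.68-fold), and 9 to 11 of 11 at the single weeks. Its score, the mean log2 signal of the list, ranged between 8.79 and 9.78 as group means with pristane, against 7.26 and 7.88 in untreated mice. The dimmest marker of the list, Itgam, had a mean of 4.54 over all arrays. The interferon response list had 16 of 17 measured genes higher on average, with group mean scores between 8.23 and 8.55 with pristane against 6.46 and 7.05 without. Of 10 monocyte markers 3 were higher (Ly6c1 2.81-fold, Ccr2 1.47-fold, F13a1 1.42-fold) and 2 lower (Cx3cr1 and Klf4), while B, T and NK cell lists had 4 of 6, 5 of 8 and 5 of 6 genes lower. In bulk blood, more cells of a type and more RNA per cell cannot be told apart, and the part of cell composition in the members' rises was not tested. At week 14 the neutrophil score averaged 9.09 with pristane against 7.73 in untreated mice, with 9 of 11 markers higher (12.7% of all genes). The monocyte score averaged 8.10 with pristane against 8.30. The pristane effect at week 14 minus that at week 12 had a median of -0.58 on the log2 scale over the neutrophil list (0 of 11 genes called). The median was -0.77 over the monocyte list (1 of 10 called, lower) and -0.46 over the interferon response list (0 of 17). In that comparison 1.28% of all genes were called lower and 0.877% higher. The part of these lists in the Il1rn values was not tested.

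No member was called in spontaneous disease of week 36 against untreated mice of week 14, and neither was any other gene (0% of 17097 genes called in each direction; limma). The log2 differences were 0.25 for Il1b, -0.11 for Il1rn, 0.14 for Nlrp3, 0.16 for Casp1, -0.10 for Casp4 and 0.20 for Pycard, with standard errors of 0.21 to 0.30, and no member had an unadjusted p under 0.05. Casp1 had its highest group mean of all 11 groups in spontaneous disease, with lowest, median and highest signals of 8.48, 8.86 and 9.39, against 8.30, 8.74 and 8.99 in untreated mice of week 14. The calls changed with the untreated group taken. Against the mean of the 5 untreated groups, where 1.25% of all genes were called higher and 0.164% lower, Casp1 was 1.0 (limma adjusted p = 0.00392) and Casp4 0.90 higher on the log2 scale (adjusted p = 0.0219), and Il1rn 0.35 higher without passing the test (adjusted p = 0.465).

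Between pristane week 14 and spontaneous disease, Casp4 alone among the members was called, where 5.59% of all genes were higher and 4.42% lower with pristane. Casp4 signals were 8.19, 8.62 and 9.21 (lowest, median, highest) with pristane, against 6.96, 7.74 and 7.98 in spontaneous disease, without overlap, as for 0.374% of all genes in this direction. The difference was 1.92-fold (95% interval 1.29 to 2.85, limma adjusted p = 0.0237). It was no longer called without spontaneous week 36 replicate 4, the lowest Casp4 array of that group, or without pristane week 14 replicate 1. Il1b (0.32 higher on the log2 scale, interval -0.11 to 0.74), Nlrp3 (0.40, -0.07 to 0.87), Pycard (0.09, -0.36 to 0.53), Il1rn (-0.32, -0.91 to 0.27) and Casp1 (-0.50, -1.03 to 0.02) were not called. Neutrophil markers were higher with pristane week 14 in this comparison for 7 of 11 genes, with mean scores of 9.09 with pristane and 8.15 in spontaneous disease, and interferon response genes for 9 of 17.

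Untreated SNF1 mice of week 14 differed from those of week 2 as well. No batch is labelled, so time and a difference between the sets of arrays cannot be told apart here. Between week 14 and week 2, 4 members were higher at week 14 (Casp4, Casp1, Il1rn and Il1b; 10% of all genes called higher), 3 of them over 2-fold (2.02% of all genes), and none was lower (14.3%). Casp4 signals were 7.15, 7.75 and 8.26 at week 14, against 5.13, 5.62 and 7.41 at week 2 (3.57-fold, 95% interval 2.40 to 5.30, limma adjusted p = 1.37e-05). Casp1 signals were 8.30, 8.74 and 8.99 at week 14, against 6.64, 7.42 and 7.98 at week 2, without overlap as for 1.44% of all genes in this direction (2.54-fold, 1.77 to 3.65, adjusted p = 0.00032). Il1rn was 2.17-fold higher (adjusted p = 0.00617) with 5 of 8 week 14 mice above all week 2 mice, and Il1b 1.48-fold higher (adjusted p = 0.0456), a call lost on leaving out any one of 9 arrays. Nlrp3 and Pycard differed by 0.18 and 0.06 on the log2 scale, which did not pass the test (adjusted p = 0.596 and 0.868). At week 12 no member was called against week 2 (0.0702% of all genes called higher, 0.135% lower), Casp4 being 2.04-fold higher with an adjusted p of 0.0858. Over the 5 untreated groups, Casp4 (adjusted p = 6.94e-05), Casp1 (adjusted p = 0.000299) and Il1rn (adjusted p = 0.0199) differed in limma's F test, which 11.8% of all genes passed.

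Monocyte markers moved with this difference in untreated blood. Between these weeks 10% of all genes were called higher at week 14 than at week 2 and 14.3% lower. Of 10 measured monocyte markers, 9 were higher at week 14 than at week 2, among them Lyz2 (1.30-fold), Ly6c1 (1.77-fold), Csf1r (3.43-fold) and Treml4 (4.60-fold), and the list's score averaged 8.30 at week 14 (range 7.80 to 8.89) against 7.04 at week 2 (6.77 to 7.30). Neutrophil markers were higher for 2 of 11 genes, Ltf and Ngp, with mean scores of 7.73 at week 14 and 7.26 at week 2. Erythroid markers were lower for 4 of 5 genes, with mean scores of 9.58 at week 14 and 10.37 at week 2. Of the interferon response genes 6 of 17 were higher and 1 lower, with mean scores of 6.90 at week 14 and 6.46 at week 2. The part of these lists in the members' changes was not tested. The spread of the arrays moved as well, since the interquartile range averaged 3.53 in untreated mice of week 14 against 3.16 at week 2. With the interquartile range as a covariate, Casp4 remained called (1.30 on the log2 scale, adjusted p = 0.00598), and Casp1 (0.67, adjusted p = 0.0857), Il1rn and Il1b did not.

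**Figure D3:**
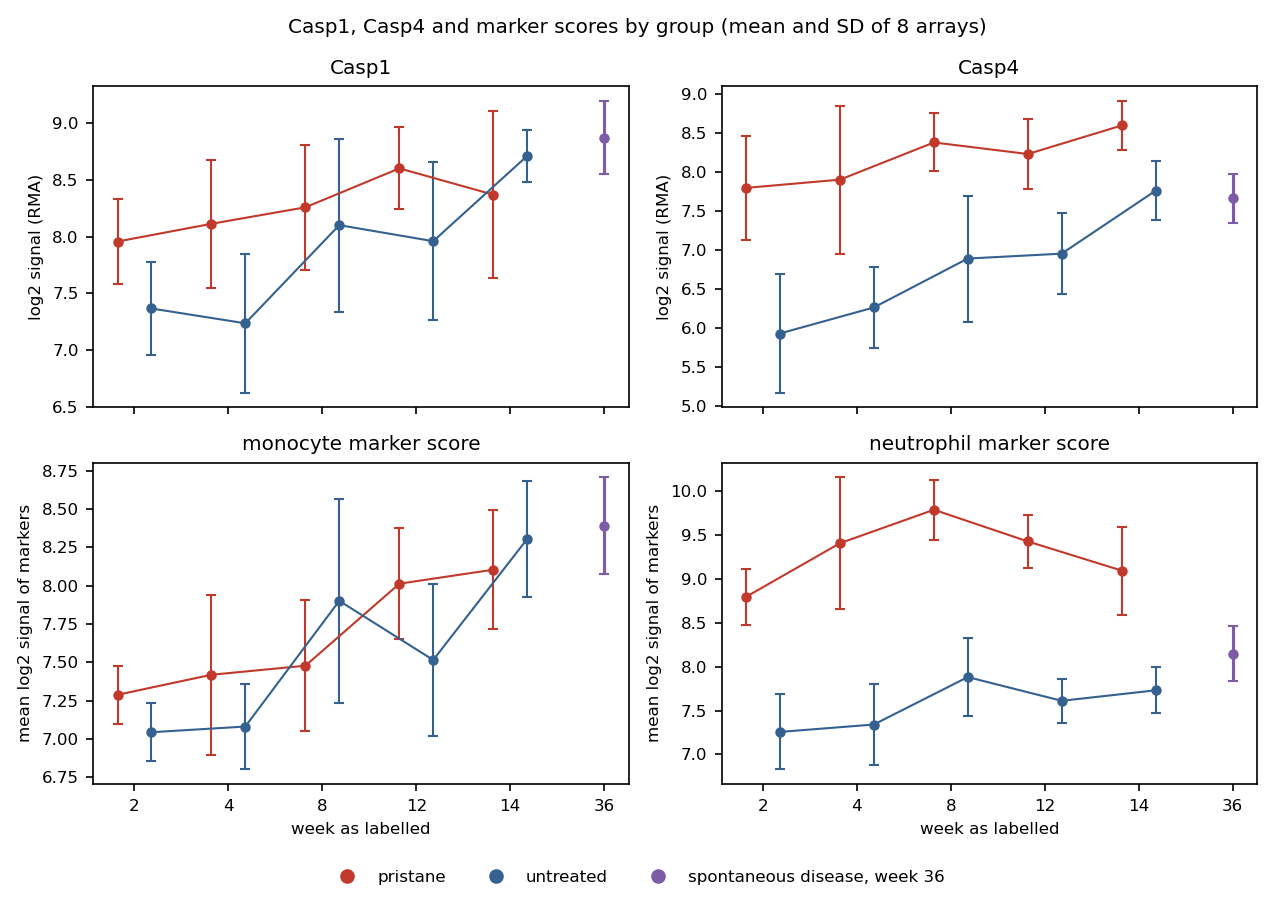
Group means with SD (8 arrays each) of Casp1 and Casp4 log2 signal (top) and of the monocyte and neutrophil marker scores (bottom), by labelled week, for pristane-treated (red), untreated (blue) and spontaneous disease mice (purple). At week 14 the monocyte score averaged 8.10 with pristane and 8.30 in untreated mice and Casp1 8.37 with pristane and 8.71 in untreated mice, whereas the means of Casp4 and of the neutrophil score lay higher with pristane at every week.

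The order of the 11 group means differed between the genes. Il1b, Il1rn and Nlrp3 were all highest with pristane at week 8 (10.82 ± 0.38, 7.28 ± 0.35 and 6.51 ± 0.36, SD, n = 8), while the lowest mean fell in untreated mice of week 2 for Il1b (9.32 ± 0.50) and Il1rn (5.07 ± 0.52) and of week 4 for Nlrp3 (5.59 ± 0.38). For Il1b and Nlrp3 the 5 pristane groups held the first 5 places. Casp4 was highest with pristane at week 14 (8.60 ± 0.32) and again had pristane groups in the first 5 places, followed by untreated mice of week 14 and spontaneous disease. Casp1 was highest in spontaneous disease (8.87 ± 0.33) and next in untreated mice of week 14 (8.71 ± 0.23), ahead of all pristane groups. Pycard was highest with pristane at week 12 (8.07 ± 0.68) and lowest in untreated mice of week 4 (7.27 ± 0.45). No neighbours in any of the 6 orders differed beyond their spread (limma adjusted p of 0.228 or more), so an order is read over several places.

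Within groups the transcripts of these genes, Pycard apart, were positively related to each other, less so once the spread of the arrays was removed. Relations are given over mice with group means removed. Il1b went with Il1rn (r = 0.73, rho = 0.68) and with Casp4 (r = 0.71, rho = 0.69) over 88 arrays, both positive in 11 of 11 groups, and the adjusted p was 2.36e-05 for each r and rho (permutation within groups, two-sided, raw p = 1e-05, the smallest that 100000 shuffles can give; 33 relations). Without the 2 arrays farthest from the median of the second gene, r was 0.69 and 0.67. Casp1 and Casp4, the genomic neighbours, gave r = 0.55 and rho = 0.50 (adjusted p = 2.36e-05 and 3.88e-05, permutation), and 0.54 without 2 arrays. Pycard gave r between -0.11 and 0.20 with the members other than Casp1, none past the threshold, and 0.27 with Casp1 (rho = 0.30, adjusted p = 0.0236 and 0.00687, permutation). The interquartile range of the array went with the members too (Casp1 r = 0.67, Il1rn 0.53, Casp4 0.49, Il1b 0.42, Nlrp3 0.28 and Pycard 0.26), and with it removed as well the r of Il1b was 0.65 with Il1rn and 0.64 with Casp4, and that of Casp1 with Casp4 0.34. The r of Casp1 was then 0.15 with Nlrp3 (0.29 before), 0.28 with Il1b (0.47) and 0.36 with Il1rn (0.58), and the pairs with Pycard lay between -0.20 and 0.14. The interferon score went with Casp4 (r = 0.57), Il1rn (0.56), Casp1 (0.53) and Il1b (0.48), and the neutrophil score with Il1rn (0.55), Il1b (0.53), Casp1 (0.50) and Casp4 (0.49), with rho between 0.43 and 0.56 and r between 0.39 and 0.52 without 2 arrays, each passing the test (permutation). Nlrp3 gave r = 0.22 and 0.23 with these scores (adjusted p = 0.119 and 0.0962, permutation) and rho = 0.28 and 0.26 (adjusted p = 0.0197 and 0.0239).

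**Figure D4:**
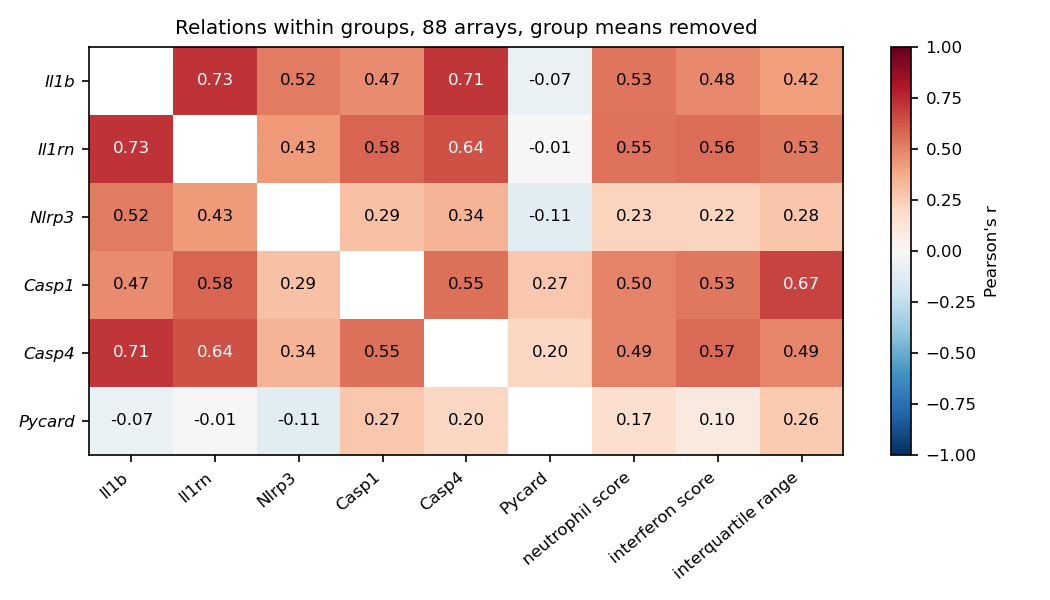
Pearson's r between the log2 signals of the 6 genes (rows) and of the other genes, the neutrophil and interferon scores and the interquartile range of the array (columns), over 88 arrays with group means removed. Il1b with Il1rn (0.73) and with Casp4 (0.71) are the strongest pairs of genes, and the Pycard row lies between -0.11 and 0.27.

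Over all 88 arrays, group differences included, the genes most like each member by Pearson's r were searched among 10632 genes with a mean above the median of all deposited values. Il1b was most like Clec4d (r = 0.89), Clec7a (0.88), the receptor for fungal β-glucan, and Csf3r (0.88), the granulocyte colony-stimulating factor receptor. Il1rn was most like C5ar1 (0.84), the receptor for complement fragment C5a, then Tpd52 (0.83) and Ifitm2 (0.82). Nlrp3 was most like Il18rap (0.72), Cd300lf (0.71) and Clec4d (0.71), and Casp1 like the oxidase subunit gene Cybb (0.85), the NAIP sensor gene Naip2 (0.83) and Bach1 (0.81). Casp4 was most like Anxa2 (0.87), Cers6 (0.86) and S100a6 (0.86), and Pycard had the lowest leading values, with Lsp1 (0.67), Ppib (0.63) and Tnfaip8l2 (0.59). These are descriptions over arrays that share groups and scaling.

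Other genes of the pathway were taken from lists chosen with earlier results of these data known, so their counts are descriptions. The genes were read on the average pristane effect, for which 12.8% of all genes were higher and 13.7% lower. Among IL-1 family receptors and decoys, 5 of 8 measured genes were higher and none lower. They were led by the decoy receptor Il1r2 (4.13-fold, limma adjusted p = 2.64e-17), which binds IL-1 without signalling, the IL-18 co-receptor Il18rap (2.13-fold, adjusted p = 4.19e-10) and the shared co-receptor Il1rap (1.74-fold, adjusted p = 7.11e-07), followed by Il18bp (1.30-fold), which neutralises IL-18. Il1r2 and Il18rap were higher at week 14 too (4.58-fold and 2.99-fold), and higher than in spontaneous disease (3.39-fold and 2.10-fold). Group mean signals of Il1r2 were 6.82 to 7.40 with pristane, against 4.66 to 5.52 in untreated mice. Of 8 IL-1 family ligands only Il1f9, which encodes IL-36γ, was called higher (2.93-fold, limma adjusted p = 3.94e-12). Il1a and Il33 differed by 0.04 and 0.03 on the log2 scale without a call, at means of 1.80 and 1.77 over all arrays. Il1f5, Il1f6, Il1f8 and Il1f10 had means of 2.57, 2.25, 2.13 and 2.94. All of these lay below the median of all deposited values (3.89), where a change could be missed. The group mean of Il1f9 was 5.87 with pristane at week 14, against 6.96 to 7.66 with pristane at the earlier weeks.

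Among sensors and adaptors, 5 of 14 measured genes were higher (Nlrp12 2.71-fold, the pyrin gene Mefv 2.14-fold, the mitochondrial Nlrx1 1.54-fold, Naip2 1.37-fold and the NLRP3 partner Nek7 1.20-fold) and 4 were lower (P2rx7, the ATP channel upstream of NLRP3, 1.27-fold, Card6 1.26-fold, Nlrc3 1.35-fold and Txnip 1.16-fold). Of 5 measured cell death effectors 2 were higher, the pore-forming gasdermin gene Gsdme (2.74-fold, adjusted p = 7.8e-14) and Ninj1 (1.15-fold), which ruptures the membrane of dying cells. Ninj1 was 2.30-fold higher at week 14 and Nlrx1 3.42-fold, both with a larger pristane effect there than at week 2 (limma adjusted p = 0.000151 and 0.00121). At weeks 2, 4 and 8 Ninj1 differed by -0.20, -0.12 and 9.4e-05 on the log2 scale without a call. Its means at week 12 were 8.06 with pristane and 7.94 without. Casp12, an effector without a call, was dim, with a mean of 2.32 over all arrays. In IL-1 receptor signalling, 2 of 17 genes were higher, the adaptor Myd88 (1.69-fold) and Nfkbiz (1.44-fold), and 3 were lower, the ubiquitin ligase Traf6 (1.42-fold), the kinase Ikbkb (1.31-fold) and Irak3 (1.30-fold), an inhibitor of the pathway. The median difference was 0.15 for sensors, 0.09 for effectors, 0.04 for ligands, 0.27 for receptors and -0.10 for signalling genes on the log2 scale, against 0.02 over all genes. In untreated mice, 6 of 14 sensors and adaptors were higher at week 14 than at week 2 and none was lower (10% of all genes higher, 14.3% lower). They were led by the NAIP family gene Naip5 (5.31-fold, limma adjusted p = 2.67e-05), and the interquartile range of the arrays moved between these groups as well.

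**Figure D5:**
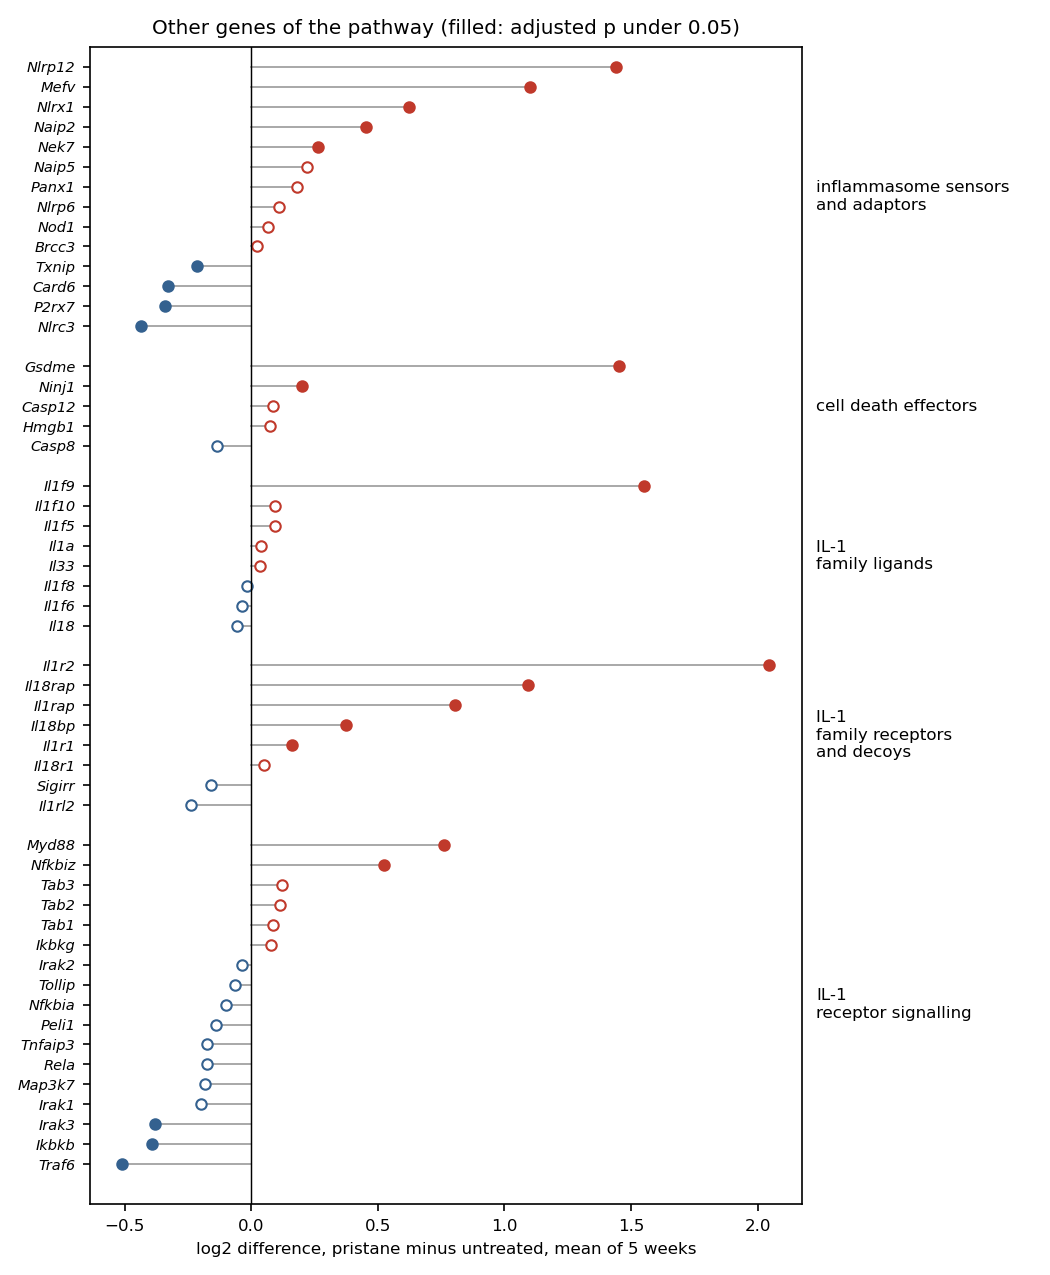
Difference of mean log2 signal, pristane minus untreated, averaged over the 5 weeks, for the measured genes of 5 pathway lists; red is above 0 and blue below, and filled points have a limma adjusted p under 0.05. Il1r2 (2.05), Il1f9 (1.55), Gsdme (1.45) and Nlrp12 (1.44) lie farthest to the right, and Traf6 (-0.51) farthest to the left.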

How the data were processed

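Whole blood RNA was amplified and hybridised by the authors to Affymetrix HT MG-430 PM arrays. The deposited values are log2 signals per probe set, which the authors made by RMA (background correction, quantile normalization and summarising of probes) in R with Bioconductor. Means of groups were fitted with limma 3.58.1 in R 4.3.3 over 11 groups (77 residual degrees of freedom), 104 control probe sets being left out, and p-values were adjusted by Benjamini-Hochberg over 45037 probe sets. The p-values measure the spread between arrays, whose number limits the precision. Of the probe sets, 28898 had 1 gene in the platform annotation, 551 several and 15588 none listed. The 6 members were all named. From the pathway lists, at most 4 genes in each direction were named by the size of the test statistic, and further ones as examples after their values were seen. The members and lists were chosen with earlier results of these data known. The fit was also run on simulated data in which 200 of 45037 probe sets were changed, and no result given here rests on that run. Alternatives were other scalings, array weights, other probe sets and controls, and leaving out each array. No batch is labelled.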

Additional observations from a re-analysis of the deposited data

Results flagged for a closer look

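In 7 of 66 sets of 8 arrays, 1 array lay far from the others by Dixon's test, where chance gives about 1 in 20. Pristane week 12 replicate 8 had an Nlrp3 signal of 4.51 (nearest 6.32), and pristane week 2 replicate 3 one of 5.12 (nearest 6.16). Pristane week 14 replicate 1 had a Pycard signal of 6.74 (nearest 8.04), and pristane week 12 replicate 4 one of 6.60 (nearest 7.75). Spontaneous week 36 replicate 4 was lowest in Il1b (9.14, nearest 10.09) and in Casp4 (6.96, nearest 7.54), and pristane week 8 replicate 6 was highest in Casp4 (9.19, nearest 8.57).

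The pristane effect on Il1rn differed between weeks by a direct test: it was lower at week 14 than at week 2 (-1.75 on the log2 scale) and than at week 12 (-1.85), and it differed among the 5 weeks (limma F test, adjusted p = 0.00844).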

How the results depend on the processing

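Counts of members called changed with some settings. The share of all genes called higher in the same fit stands in parentheses. Centring on the median left 1 member at week 14 (11.3%), and so did fitting only the 16 arrays compared at week 14 (9.35%) and at week 4 (1.36%). With the interquartile range as a covariate 5 members were called at week 12 (4.15%) and 1 in untreated mice of week 14 against week 2 (0.772%). Array weights gave 3 members whose effect was lower at week 14 than at week 2 (5.61% of all genes lower), and 1 in untreated mice of week 12 against week 2 (0.912%). The next probe sets gave 0 members that differed among weeks (3.16% by the F test), and the mean of 5 untreated groups as control gave 2 in spontaneous disease (1.25%).

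Among uncalled values the sign turned. For Pycard in untreated mice of week 14 against week 2 it was -0.15 after quantile normalization, -0.11 centred on the brightest probe sets and -0.16 with the interquartile range as a covariate. For Nlrp3 between weeks 14 and 2 it was -0.031 after median centring. With that covariate it was 0.0083 for Il1rn and 0.15 for Casp1 at week 14, 0.025 for Il1rn and 0.020 for Casp4 in spontaneous disease, 0.042 for Il1b between weeks 14 and 12, and -0.065 for Nlrp3 in untreated mice. The next Pycard probe set gave -0.027, 0.056, -0.024 and -0.15 at weeks 4, 8, 12 and 14, -0.038 on average, -0.17 in spontaneous disease, -0.11 between weeks 14 and 2 and 0.071 in untreated mice of week 12, and the next Il1rn probe set 0.052 in spontaneous disease. With untreated week 12 as control, Il1rn was 0.083 and Casp1 0.41 at week 14. Against the mean of untreated groups, Il1rn was 0.35 and Casp4 0.90 in spontaneous disease, where Casp4 was called (adjusted p = 0.0219). The cause was not tested.

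Leaving out 1 array gave 3 members at week 2, 2 to 4 at week 4, 2 to 3 at week 8, 2 to 4 at week 12, 0 to 2 at week 14, 5 on average, 0 to 1 for pristane week 14 against spontaneous disease, 1 to 2 between weeks 14 and 2, 3 to 4 in untreated week 14 and 0 to 1 in untreated week 12 against week 2. The share of all genes was not computed for these fits. With all arrays, 2.29%, 2.18%, 1.85%, 2.7% and 12.7% of all genes were called higher at the 5 weeks, and 12.8% on average. It was 5.59% for pristane week 14 against spontaneous disease, 10% in untreated week 14 and 0.0702% in untreated week 12. The effect was lower at week 14 than at week 2 for 2.67%. Uncalled differences whose sign turned on leaving out 1 array were Il1rn in spontaneous disease (-0.25 to 0.034), Nlrp3 between weeks 14 and 2 (-0.10 to 0.16), Pycard in untreated week 14 (-0.046 to 0.13) and, at week 8, Casp1 (-0.048 to 0.35) and Pycard (-0.27 to 0.010). Same-numbered arrays were not fitted as pairs in the main fit (median r 0.05, against -0.01 for other numbers). The highest single pair of week 4 reached r = 0.54, and a low median cannot tell whether animals were paired. With the replicate number as a block Casp1 was added at week 4, and no other count changed.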

Other observations

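The balance of Il1b against Il1rn was looked at after their values were seen. The difference of their log2 signals within each array was compared between pristane-treated and untreated mice at each week by an exact permutation test (two-sided, 12870 permutations, 5 weeks). The change was -0.12, -0.60, -0.22 and -0.72 at weeks 2, 4, 8 and 12 and 1.0 at week 14, with exact p of 0.62, 0.0385, 0.194, 0.000466 and 0.00311 and adjusted p of 0.62, 0.0642, 0.242, 0.00233 and 0.00777. As the values of both genes were known, these p-values restate their week differences and are no further test. The dimmer Il1rn probe sets gave pristane differences of -0.24 and 0.23 at week 14, without a call. At week 12, 6 of 8 pristane-treated mice lay below every untreated mouse, and at week 14, 5 of 8 lay above every untreated mouse. The 8 Il1rn signals with pristane at week 14 were 7.43, 6.22, 5.32, 5.09, 6.36, 5.57, 4.40 and 5.65.

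Platelet markers moved at the same week: all 6 measured genes were higher with pristane at week 14 (12.7% of all genes), among them Itga2b (2.66-fold) and Treml1 (2.51-fold). Itga2b and Treml1 had a larger pristane effect at week 14 than at week 2 (limma adjusted p = 0.000177 and 8.38e-05), as had 4.19% of all genes. Their part in the week 14 values was not tested.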
